A study of Bos taurus with 40 samples.

Results

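The genes described are 39 genes known to be switched on by interferons, taken from a list of names and looked up among the row names of the count table. Of these, 38 were found among the 32671 genes of the table, and BST2 is not analysed here. All 38 passed the filter on low counts, after which 20356 genes were tested. The list names genes by their known response to interferon and not by values of these libraries, but it was drawn up with earlier results of these data known.

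The libraries came from endometrium, the lining of the uterus, of 20 synchronised heifers, 5 on each of days 5, 7, 13 and 16. The study compared the ipsilateral uterine horn, which lies next to the ovary that carries the corpus luteum, the progesterone-secreting gland left by ovulation, with the contralateral horn. The 8 groups of 5 libraries are the ipsilateral and the contralateral horn on each of the 4 days, all from untreated tissue homogenates as far as the labels say. The labels count days of pregnancy and the design text days after estrus, and the sources used here do not say whether an embryo was present. Each title carries a tag such as 2-068, and both horns of a day carry the same 5 tags. In most tags the 2 libraries did not deviate together from their group means, so the tags were not used to pair the horns, and which libraries came from the same heifer is treated as not known. Within a horn and day, the 5 libraries come from 5 heifers by the design.

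Each library held 27.03 to 64.36 M reads assigned to genes, and the second deepest held 41.31 M. Levels are given in CPM, read counts divided by library size in units of 1 M reads, with library sizes adjusted by TMM, edgeR's correction for composition. CPM are not corrected for gene length and are compared between libraries, never between genes. The deepest library was ipsilateral day 5 library 3-175, the middle one of its group in the mean log2(CPM + 1) of the interferon-stimulated genes (4.80). Markers of epithelium (EPCAM, 136.0 to 616 CPM), glands (FOXA2, 6.20 to 34.2 CPM) and stroma (DCN, 2121 to 4243 CPM) were detected in all 40 libraries. For every gene the libraries are given in 1 order. The day 5 libraries are 1-315, 3-175, 4-184, 7-300 and 8-1350. On day 7 they are 2-1337, 2-371, 4-064, 5-117 and 6-338. On day 13 they are 4-1314, 5-140, 5-167, 6-203 and 8-275, and on day 16 they are 2-068, 3-155, 5-137, 7-107 and 8-245. In whole tissue, a change in the RNA of each cell and a change in the number of the cells that make it cannot be told apart.

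Interferons are secreted proteins that warn cells of infection. Type I interferons bind the receptor made of IFNAR1 and IFNAR2, whose kinases JAK1 and TYK2 activate STAT2, which with IRF9 forms part of a factor that switches on a shared set of antiviral genes. In ruminants the elongating conceptus secretes interferon tau, a type I interferon that signals pregnancy to the mother and raises the same genes in the endometrium. They are therefore watched in cattle as markers of early pregnancy.

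Most of the 38 genes varied together from library to library, and by far more between libraries of the same horn and day than most genes did. On days 5, 7 and 13, 2 of the 5 libraries in each horn carried the highest levels of nearly all of them. On day 5 these were 1-315 and 7-300 in the ipsilateral horn and 3-175 and 4-184 in the contralateral horn, for 38 of 38 genes in both. On day 7 they were 4-064 and 5-117 in the ipsilateral horn and 5-117 and 6-338 in the contralateral horn, for 36 of 38 genes in each. On day 13 they were 6-203 and 4-1314 in the ipsilateral horn and 5-167 and 4-1314 in the contralateral horn, again for 36 of 38 genes in each. On day 16 the libraries lay close together, and the top 2 by mean level were the top 2 for 19 of 38 genes in the ipsilateral horn (2-068 and 3-155) and for 12 of 38 in the contralateral horn (3-155 and 5-137).

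This order was read from the data and carries no test. For each gene, the 2 highest libraries of a group were compared with those of the mean of the other members. In 35 of the 38 genes they were the same in all 6 groups of days 5, 7 and 13, and the same was true of 32 of 20318 other tested genes (0.157%) set against the mean of all 38. Within a single group, other tested genes shared the 2 highest libraries in 6.76% to 13.5% of cases. The exceptions among the 38 were OAS1X and TRIM21, with 4 of 6 groups each, and HERC5, with 2 of 6.

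**Figure D1:**
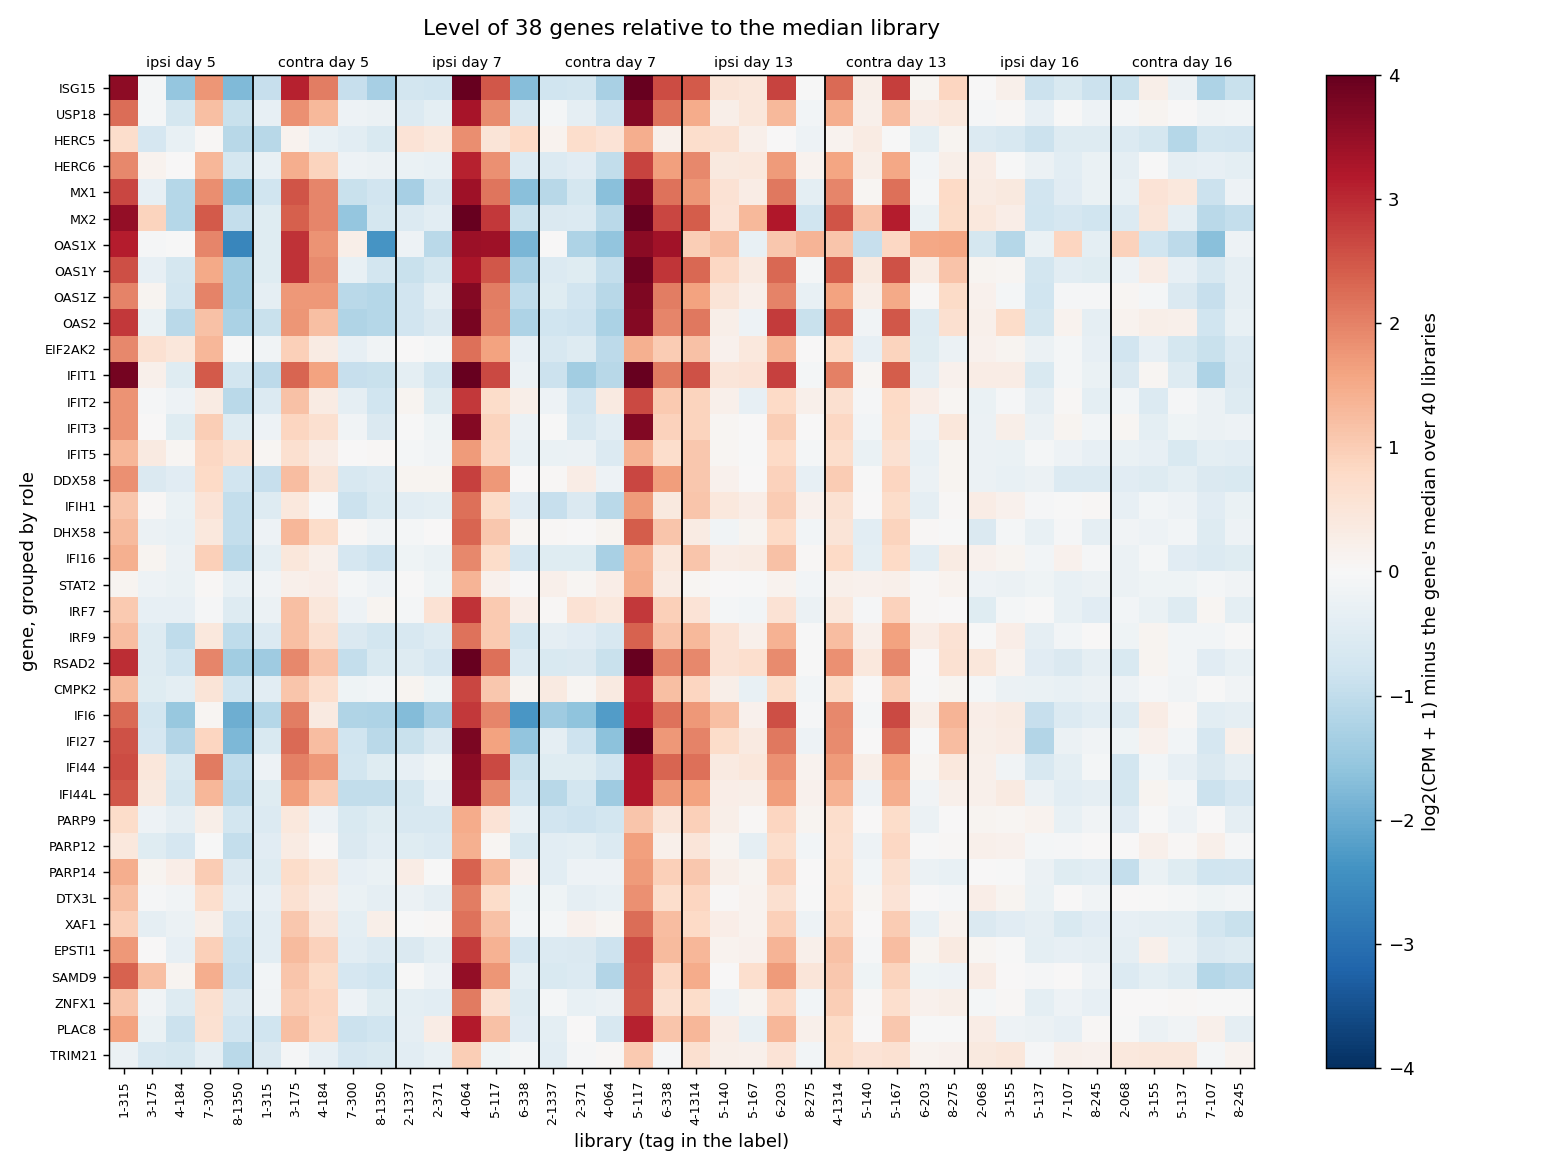
Level of each of the 38 genes (rows, grouped by role) in each of the 40 libraries (columns, by horn and day, labelled with the tag), as log2(CPM + 1) minus the gene's median over 40 libraries; red is above and blue below that median. Columns 1-315 and 7-300, 3-175 and 4-184, 4-064 and 5-117, 5-117 and 6-338, 6-203 and 4-1314, and 5-167 and 4-1314 stand out in red down nearly the whole list, and the 10 day 16 columns are pale.

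The mean of log2(CPM + 1) over the 38 genes shows the size of this split. From low to high it was 3.93, 4.38, 4.80, 5.85 and 6.71 in the ipsilateral horn on day 5, and 4.27, 4.34, 4.37, 5.70 and 6.24 in the contralateral horn. On day 7 it was 4.33, 4.52, 4.55, 6.34 and 7.81 in the ipsilateral horn and 4.19, 4.45, 4.48, 6.26 and 7.72 in the contralateral horn. The gap between the highest and the lowest library was wider on day 7 than on the other days. On day 13 the means were 4.85, 5.08, 5.22, 6.20 and 6.28 in the ipsilateral and 4.86, 4.92, 5.24, 6.08 and 6.18 in the contralateral horn, a smaller gap. On day 16 they were 4.50, 4.61, 4.68, 4.92 and 4.92 in the ipsilateral and 4.37, 4.51, 4.62, 4.63 and 4.83 in the contralateral horn, with no library standing apart.

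The tags of the high libraries differed between the horns. No tag was among the 2 highest in both horns on day 5, 5-117 was on day 7, 4-1314 on day 13 and 3-155 on day 16. Library 4-064 had the highest mean in the ipsilateral horn on day 7 (7.81), and the contralateral library of that tag had the lowest of its group (4.19). Library 6-203 had the highest mean in the ipsilateral horn on day 13 (6.28), and its contralateral namesake again the lowest (4.86). Over all tested genes, the deviations of ipsilateral 4-064 correlated at -0.05 with its contralateral namesake and at 0.67 with a contralateral library of another tag. For 6-203 these values were -0.25 and 0.57, so namesakes may not be of 1 heifer. The pairing of horns within animals is not known, as said above, so no count of animals with high levels can be drawn from these libraries.

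ISG15 encodes a ubiquitin-like protein that is joined to other proteins during the interferon response, and it had one of the widest spreads. Day 5 levels of ISG15 were 112, 7.89, 2.23, 31.3 and 1.80 CPM in ipsilateral libraries and 3.96, 78.2, 38.2, 3.96 and 2.77 CPM in contralateral libraries. For ISG15 on day 7 the ipsilateral libraries gave 4.67, 4.49, 333, 51.5 and 1.88 CPM and the contralateral libraries 4.38, 4.68, 2.83, 404 and 57.04 CPM. Within the day 7 ipsilateral group the highest library was 176.8 times the lowest, and in both horns the 3 lower libraries stayed under 5 CPM. ISG15 on day 13 stood at 51.1, 12.4, 11.9, 61.05 and 8.38 CPM in the ipsilateral horn, against 44.3, 10.1, 63.8, 9.16 and 16.2 CPM in the contralateral horn. ISG15 on day 16 stood at 8.50, 9.80, 4.17, 5.18 and 4.23 CPM in the ipsilateral horn, against 4.06, 9.99, 7.03, 3.04 and 4.14 CPM in the contralateral horn. The day 13 values again fall into 2 high and 3 low libraries, and on day 16 all 10 libraries lay at or under 10 CPM. The horns overlapped on every day.

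USP18, the protease that removes ISG15 from proteins and dampens the type I receptor, ran from 2.39 to 78.2 CPM over the 40 libraries with the same 2 highest libraries in all 6 groups of days 5, 7 and 13. HERC6 belongs to the HERC family of ubiquitin-like ligases. On day 5, HERC6 had 217, 61.97, 56.5, 143 and 34.2 CPM in the ipsilateral libraries and 45.7, 157, 106, 48.99 and 47.5 CPM in the contralateral libraries. Day 7 levels of HERC6 were 46.2, 45.4, 478, 203 and 37.8 CPM in ipsilateral libraries and 38.2, 41.1, 27.8, 374 and 178 CPM in contralateral libraries. Both horns showed the same split into 2 high and 3 lower libraries, and the horns overlapped. For HERC6 on day 13 the ipsilateral libraries gave 217, 73.9, 76.1, 187 and 61.9 CPM and the contralateral libraries 169, 65.8, 167, 52.3 and 65.6 CPM. For HERC6 on day 16 the ipsilateral libraries gave 69.8, 55.8, 47.4, 41.8 and 46.1 CPM and the contralateral libraries 43.1, 55, 43.3, 44.3 and 42.5 CPM. On day 16 one contralateral library, 3-155, stood above 4 that differed by less than 2 CPM.

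HERC5, the ligase that attaches ISG15 in human cells, departed from the rest. HERC5 on day 5 stood at 79.99, 30.2, 40.1, 50.4 and 22.4 CPM in the ipsilateral horn, against 22.2, 54.6, 39.97, 36.2 and 31.9 CPM in the contralateral horn. On day 7, HERC5 had 72.9, 66.3, 179, 71.3 and 85.6 CPM in the ipsilateral libraries and 54.6, 80.5, 72.7, 137 and 57.1 CPM in the contralateral libraries. All 5 day 7 libraries of both horns lay above 50 CPM, where only 2 day 5 libraries of the ipsilateral and 1 of the contralateral horn did. Day 13 levels of HERC5 were 80.2, 76.9, 56.1, 50.1 and 42.3 CPM in ipsilateral libraries and 54.1, 62.1, 48.1, 37.2 and 53.6 CPM in contralateral libraries. Day 16 levels of HERC5 were 33, 31.4, 26.8, 34.2 and 34.4 CPM in ipsilateral libraries and 33.3, 30.1, 21.6, 28.9 and 28.5 CPM in contralateral libraries. Its levels on day 16 were below every day 13 level in both horns.

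MX1 encodes a dynamin-like GTPase that blocks viral ribonucleoproteins and is the gene most used in cattle to follow the interferon response. For MX1 on day 5 the ipsilateral libraries gave 796, 99.8, 55.7, 458 and 39.4 CPM and the contralateral libraries 70.5, 709.8, 484, 66.6 and 72.2 CPM. MX1 on day 7 stood at 48.9, 78.7, 1301, 549.8 and 38.5 CPM in the ipsilateral horn, against 56.98, 76.1, 38.6, 1588 and 561 CPM in the contralateral horn. The highest library of day 7 was the same as for ISG15 in each horn, and the next was 5-117 in the ipsilateral and 6-338 in the contralateral horn. On day 13, MX1 had 426, 188, 154, 538 and 95.1 CPM in the ipsilateral libraries and 480.1, 131, 571, 118 and 217 CPM in the contralateral libraries. On day 16, MX1 had 158, 162, 73.2, 90.99 and 103 CPM in the ipsilateral libraries and 100.1, 181, 167, 68.2 and 107 CPM in the contralateral libraries. Day 16 levels stayed between 68.2 and 181 CPM, overlapping the lower libraries of day 13.

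MX2, the second GTPase of this family, had the largest spread of all 38 genes. Day 5 levels of MX2 were 80.9, 12.2, 2.23, 38.6 and 2.73 CPM in ipsilateral libraries and 4.16, 36.9, 26.6, 1.46 and 3.43 CPM in contralateral libraries. For MX2 on day 7 the ipsilateral libraries gave 3.89, 4.38, 409, 49.8 and 2.84 CPM and the contralateral libraries 3.85, 3.93, 2.38, 412 and 44.8 CPM. In the contralateral horn on day 7 its highest library was 173.4 times its lowest. MX2 on day 13 stood at 37.3, 9.45, 16.7, 65.2 and 3.12 CPM in the ipsilateral horn, against 40.3, 14.5, 62.3, 4.94 and 11.3 CPM in the contralateral horn. MX2 on day 16 stood at 8.50, 7.65, 3.15, 3.50 and 3.12 CPM in the ipsilateral horn, against 3.88, 9.07, 4.55, 2.42 and 2.66 CPM in the contralateral horn. Libraries 4-1314 and 6-203 stood above 37 CPM in the ipsilateral horn on day 13, and no day 16 library passed 10 CPM.

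OAS1X, OAS1Y and OAS1Z encode 2'-5' oligoadenylate synthetases, which sense double-stranded RNA and activate RNase L. They are closely related copies, and the sources used here do not say how reads shared between them were counted. On day 5, OAS1Y had 320.2, 41.5, 31.9, 152 and 19.6 CPM in the ipsilateral libraries and 37.7, 400, 196, 42.5 and 31.2 CPM in the contralateral libraries. Day 7 levels of OAS1Y were 28.2, 32.04, 511, 296 and 21.02 CPM in ipsilateral libraries and 35.4, 37, 26.6, 789 and 386 CPM in contralateral libraries. The day 7 contralateral maximum, in 5-117, was the highest OAS1Y level of all 40 libraries. For OAS1Y on day 13 the ipsilateral libraries gave 262, 94.1, 68.3, 262 and 50.2 CPM and the contralateral libraries 283, 68.7, 310, 65.6 and 116 CPM. For OAS1Y on day 16 the ipsilateral libraries gave 56.9, 55.1, 30.98, 39.4 and 37.5 CPM and the contralateral libraries 45.8, 65, 41.3, 33.2 and 40.8 CPM. OAS1Y kept the split on day 13 and lost it on day 16, and the horns overlapped throughout.

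OAS1X followed the other genes on days 5 and 7 and departed from them on day 13. OAS1X on day 5 stood at 90.4, 8.94, 9.37, 39.05 and 0.690 CPM in the ipsilateral horn, against 6.45, 76.2, 35.2, 11.3 and 1.01 CPM in the contralateral horn. On day 7, OAS1X had 8.03, 3.96, 109, 108 and 1.92 CPM in the ipsilateral libraries and 9.38, 3.41, 2.47, 127 and 106 CPM in the contralateral libraries. In the ipsilateral horn on day 7, 4-064 and 5-117 lay within 2 CPM of each other, where MX1 differed by more than 2-fold between them. Day 13 levels of OAS1X were 19.5, 22.7, 7.45, 21.1 and 25.8 CPM in ipsilateral libraries and 21.3, 4.44, 17.6, 29.1 and 29.8 CPM in contralateral libraries. Day 16 levels of OAS1X were 5.31, 3.73, 7.63, 17.96 and 6.98 CPM in ipsilateral libraries and 18.5, 5.00, 4.00, 2.24 and 8.05 CPM in contralateral libraries. On day 13 OAS1X was highest in 8-275 of the ipsilateral horn and in 6-203 and 8-275 of the contralateral horn, which were not the highest for most other members, and a single library in each horn was far below the other 4.

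OAS1Z ran from 2.76 to 131 CPM. OAS2, another synthetase, ran from 1.93 to 98.04 CPM, and in the reference table its span overlaps that of OAS1Y, so reads of the 2 may be hard to separate. EIF2AK2 encodes PKR, the kinase that halts translation when it binds double-stranded RNA, and had the smallest spread of this group. For EIF2AK2 on day 5 the ipsilateral libraries gave 174, 70.5, 63.1, 116 and 45.1 CPM and the contralateral libraries 41.6, 88.6, 57.4, 36.5 and 41.5 CPM. EIF2AK2 on day 7 stood at 46.2, 42.8, 211, 141 and 36.2 CPM in the ipsilateral horn, against 29.1, 31.8, 21.4, 125 and 92.98 CPM in the contralateral horn. The 2 high libraries of each group were those of the other genes, but with a smaller excess. On day 13, EIF2AK2 had 104, 51.2, 62.1, 121 and 46.01 CPM in the ipsilateral libraries and 79.95, 35.9, 85.8, 32.1 and 38.2 CPM in the contralateral libraries. On day 16, EIF2AK2 had 51.5, 49.8, 38.3, 43.02 and 35.7 CPM in the ipsilateral libraries and 26.5, 36.4, 27.3, 24 and 30.6 CPM in the contralateral libraries. Its lowest ipsilateral level on day 16 was below the highest contralateral level, so the horns overlapped, and the other 4 ipsilateral libraries lay above all 5 contralateral ones.

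IFIT proteins bind foreign or capless RNA and block its translation. IFIT1 is not a symbol of the reference table and keeps the name the counts give it. Day 5 levels of IFIT1 were 339, 26.6, 15.9, 129.5 and 13.3 CPM in ipsilateral libraries and 10.6, 117, 70.95, 11.7 and 11.9 CPM in contralateral libraries. For IFIT1 on day 7 the ipsilateral libraries gave 16.98, 13.4, 714, 147 and 19.3 CPM and the contralateral libraries 12.1, 8.06, 9.99, 505 and 100.3 CPM. Library 4-064 of the ipsilateral horn exceeded the next, 5-117, by more than 500 CPM. IFIT1 on day 13 stood at 138, 32.2, 34.01, 158 and 21.6 CPM in the ipsilateral horn, against 94.5, 23.9, 126, 17.6 and 25.96 CPM in the contralateral horn. IFIT1 on day 16 stood at 28.3, 28.3, 14.7, 21.8 and 18.6 CPM in the ipsilateral horn, against 14.9, 24, 15.7, 9.21 and 15.04 CPM in the contralateral horn. On day 13 both horns again showed 2 libraries above 90 CPM and 3 below 35 CPM.

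IFIT5 spread least of the IFIT genes. On day 5, IFIT5 had 234, 119, 99.7, 167 and 143 CPM in the ipsilateral libraries and 98.7, 147, 114, 94.03 and 97.1 CPM in the contralateral libraries. Day 7 levels of IFIT5 were 88.5, 85.5, 306, 169.8 and 75.9 CPM in ipsilateral libraries and 77.99, 78.4, 63.5, 245 and 152 CPM in contralateral libraries. No library of the 2 days was under 60 CPM, and the 2 highest of each group were those of the other genes. For IFIT5 on day 13 the ipsilateral libraries gave 197, 98.4, 92.7, 164 and 89.2 CPM and the contralateral libraries 152, 77.3, 142, 75.1 and 99.8 CPM. For IFIT5 on day 16 the ipsilateral libraries gave 79.3, 77.9, 88.8, 80.2 and 74.7 CPM and the contralateral libraries 76.8, 74.9, 61.03, 70.7 and 69.3 CPM. All 5 ipsilateral day 16 libraries lay below all 5 ipsilateral day 5 libraries.

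IFIT2 ran from 1.03 to 28.9 CPM and IFIT3 from 6.40 to 149 CPM, both with the same 2 highest libraries in all 6 groups of days 5, 7 and 13. DDX58 encodes RIG-I, a sensor of viral RNA in the cytoplasm. DDX58 on day 5 stood at 232, 43.4, 46.9, 113 and 38.04 CPM in the ipsilateral horn, against 33.7, 154, 92.8, 41.9 and 44.7 CPM in the contralateral horn. On day 7, DDX58 had 69.8, 70.1, 436, 219.6 and 66.2 CPM in the ipsilateral libraries and 67.4, 79.8, 56.6, 422 and 209 CPM in the contralateral libraries. The 3 lower libraries of day 7 lay between 56.6 and 79.8 CPM in both horns, above the lower libraries of day 5, which lay between 33.7 and 46.9 CPM. Day 13 levels of DDX58 were 137, 74.1, 66.2, 123 and 52.02 CPM in ipsilateral libraries and 133, 64.1, 118, 55.1 and 69.95 CPM in contralateral libraries. Day 16 levels of DDX58 were 55.4, 53.1, 55.2, 43.9 and 44 CPM in ipsilateral libraries and 47.4, 45.5, 48.96, 43.3 and 42.1 CPM in contralateral libraries. By day 16 the libraries were within 42.1 to 55.4 CPM, a narrow range.

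IFIH1, the related sensor MDA5, ran from 16.1 to 163 CPM, DHX58, their regulator LGP2, from 19.9 to 217 CPM, and IFI16, a sensor of DNA, from 20.6 to 199.7 CPM. All 3 had the same 2 highest libraries in all 6 groups of days 5, 7 and 13.

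STAT2, IRF9 and IRF7 are factors of the pathway itself. STAT2 varied least of the 38 genes. For STAT2 on day 5 the ipsilateral libraries gave 112, 90.9, 86.3, 108 and 84.9 CPM and the contralateral libraries 95.02, 119.7, 125, 97.4 and 90.96 CPM. STAT2 on day 7 stood at 104, 92.8, 266, 117 and 104 CPM in the ipsilateral horn, against 119, 110.4, 124, 287 and 131 CPM in the contralateral horn. One library in each horn stood at more than 260 CPM on day 7, and the other 8 lay between 92.8 and 131 CPM. On day 13, STAT2 had 109, 105, 102, 115 and 96.2 CPM in the ipsilateral libraries and 119.5, 117, 120.3, 107 and 115 CPM in the contralateral libraries. On day 16, STAT2 had 90.2, 87.8, 92.5, 83.7 and 87.4 CPM in the ipsilateral libraries and 89.1, 92.5, 92.6, 99.3 and 93.2 CPM in the contralateral libraries. On these later days all 20 libraries lay between 83.7 and 120.3 CPM, and on day 13 the top 2 of each horn were still those of the other genes.

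IRF9, the DNA-binding partner of STAT2, spread more than STAT2. Day 5 levels of IRF9 were 84.8, 24.8, 16.96, 48.4 and 17.04 CPM in ipsilateral libraries and 23.9, 83.3, 55.5, 23.4 and 20.9 CPM in contralateral libraries. For IRF9 on day 7 the ipsilateral libraries gave 22.2, 24.5, 164, 74.5 and 20.8 CPM and the contralateral libraries 27.4, 25.9, 22.4, 187 and 79.97 CPM. On day 7 it was above 70 CPM in the 2 libraries of each horn that were high for the other genes, and below 28 CPM in the rest. IRF9 on day 13 stood at 89.6, 53.4, 41.3, 95.1 and 35.1 CPM in the ipsilateral horn, against 85.9, 41.3, 109.8, 43.9 and 53.8 CPM in the contralateral horn. IRF9 on day 16 stood at 35.5, 43.1, 27.2, 32.7 and 35.6 CPM in the ipsilateral horn, against 31.6, 38.4, 33.05, 32.8 and 34.9 CPM in the contralateral horn. On day 13, 3 of 5 libraries in each horn lay below 55 CPM and 2 above 85 CPM, and on day 16 all lay below 45 CPM.

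IRF7 drives a second wave of interferon production. On day 5, IRF7 had 51.6, 18.9, 19.3, 23.4 and 16.8 CPM in the ipsilateral libraries and 20.5, 57.1, 33.5, 20.96 and 26.3 CPM in the contralateral libraries. Day 7 levels of IRF7 were 22.8, 36.7, 188, 51.8 and 29.6 CPM in ipsilateral libraries and 25.01, 36.7, 32.9, 179 and 48.03 CPM in contralateral libraries. The day 7 maxima of both horns were more than 3 times the next library of their group. For IRF7 on day 13 the ipsilateral libraries gave 35.6, 22.8, 22.3, 37.04 and 20.5 CPM and the contralateral libraries 32.6, 23.7, 46.8, 25.01 and 24.4 CPM. For IRF7 on day 16 the ipsilateral libraries gave 17.1, 23.2, 24.1, 19.6 and 17.6 CPM and the contralateral libraries 22.2, 19.9, 16.8, 25.6 and 18.3 CPM. From day 13 on no library passed 50 CPM.

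RSAD2 encodes viperin, an enzyme that makes a chain-ending nucleotide which stops viral polymerases, and CMPK2, its neighbour in many genomes, supplies the substrate. RSAD2 on day 5 stood at 155, 12.9, 10.5, 76.7 and 6.66 CPM in the ipsilateral horn, against 6.47, 73.8, 43.3, 9.35 and 12.02 CPM in the contralateral horn. On day 7, RSAD2 had 12.98, 11.5, 551, 90.6 and 12.7 CPM in the ipsilateral libraries and 12.1, 12.5, 9.69, 421 and 77.4 CPM in the contralateral libraries. The top day 7 library held 551 CPM in the ipsilateral and 421 CPM in the contralateral horn, where the 3 lower libraries of each stayed under 14 CPM. Day 13 levels of RSAD2 were 73.8, 29.04, 31, 73.2 and 18.6 CPM in ipsilateral libraries and 70.5, 25.8, 75.2, 19.3 and 29.3 CPM in contralateral libraries. Day 16 levels of RSAD2 were 26.4, 21.1, 13.7, 12.2 and 14.7 CPM in ipsilateral libraries and 12.1, 20.6, 17.7, 13.6 and 15.1 CPM in contralateral libraries. Both later days repeated the picture of ISG15, with a split on day 13 and none on day 16. CMPK2 ran from 18.8 to 281 CPM.

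IFI6 and IFI27 encode small membrane proteins of mitochondria and the endoplasmic reticulum. For IFI6 on day 5 the ipsilateral libraries gave 620.1, 77.5, 44.3, 137 and 32.3 CPM and the contralateral libraries 58.6, 539, 166, 55.9 and 54.1 CPM. IFI6 on day 7 stood at 37.96, 50.5, 921, 507 and 25.1 CPM in the ipsilateral horn, against 47.98, 41.9, 26.7, 1177 and 583 CPM in the contralateral horn. The 3 lower libraries of day 7 lay below 51 CPM in both horns, and the 2 higher ones above 500 CPM. On day 13, IFI6 had 433, 296, 145, 775 and 124 CPM in the ipsilateral libraries and 488, 122, 818, 152 and 336 CPM in the contralateral libraries. On day 16, IFI6 had 155, 162, 68.1, 87.6 and 96.2 CPM in the ipsilateral libraries and 90.9, 160.5, 134, 96.5 and 100.4 CPM in the contralateral libraries. On day 13 even the lowest library of each horn exceeded 120 CPM, above the 3 lower libraries of days 5 and 7. IFI27 ran from 12.95 to 893 CPM with the same 2 highest libraries in all 6 groups of days 5, 7 and 13.

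IFI44 and IFI44L are related antiviral genes. Day 5 levels of IFI44 were 52.04, 10.9, 4.68, 35.95 and 3.32 CPM in ipsilateral libraries and 6.53, 34.4, 28, 4.23 and 5.18 CPM in contralateral libraries. For IFI44 on day 7 the ipsilateral libraries gave 5.89, 6.79, 106, 53.5 and 3.67 CPM and the contralateral libraries 5.24, 5.29, 4.18, 80.5 and 42.9 CPM. The horns overlapped, with the same high libraries as for the other genes. IFI44 on day 13 stood at 39.1, 10.2, 10.96, 29.9 and 8.65 CPM in the ipsilateral horn, against 27.2, 9.23, 25.6, 8.24 and 10.8 CPM in the contralateral horn. IFI44 on day 16 stood at 9.09, 6.92, 4.58, 5.71 and 7.24 CPM in the ipsilateral horn, against 4.27, 7.03, 5.96, 4.87 and 5.74 CPM in the contralateral horn. Day 16 levels were all below 10 CPM in both horns.

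IFI44L, its relative, spread about as widely. On day 5, IFI44L had 83.9, 18.8, 8.16, 36.96 and 6.13 CPM in the ipsilateral libraries and 9.75, 47.1, 29.3, 6.58 and 6.54 CPM in the contralateral libraries. Day 7 levels of IFI44L were 8.17, 10.9, 177, 56.4 and 7.77 CPM in ipsilateral libraries and 6.01, 8.02, 4.66, 139 and 48.8 CPM in contralateral libraries. Its day 7 levels ran over a range of more than 20-fold in both horns. For IFI44L on day 13 the ipsilateral libraries gave 45.4, 17.1, 16.8, 46.6 and 15.8 CPM and the contralateral libraries 38.7, 12.2, 40.1, 12.7 and 16.5 CPM. For IFI44L on day 16 the ipsilateral libraries gave 16.4, 18.3, 11.7, 10.3 and 10.8 CPM and the contralateral libraries 8.33, 15.1, 13.1, 7.35 and 8.55 CPM. The lower day 13 libraries, at 12.2 to 17.1 CPM, overlapped the day 16 libraries.

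PARP9, PARP12 and PARP14 transfer ADP-ribose, and DTX3L is the ubiquitin ligase that partners PARP9. PARP12 spread least of them. PARP12 on day 5 stood at 109, 57.8, 50.6, 79.9 and 41.5 CPM in the ipsilateral horn, against 58.4, 102, 84.2, 53.9 and 59.96 CPM in the contralateral horn. On day 7, PARP12 had 57.8, 55.1, 221, 85.4 and 52.7 CPM in the ipsilateral libraries and 59.9, 62.1, 55.2, 253 and 94.4 CPM in the contralateral libraries. One library of each horn exceeded 200 CPM on day 7, and the next was under 100 CPM. Day 13 levels of PARP12 were 115, 87.8, 63.3, 132 and 75.3 CPM in ipsilateral libraries and 130.3, 70.5, 145, 80.9 and 83.9 CPM in contralateral libraries. Day 16 levels of PARP12 were 94.4, 92.01, 76.4, 79.1 and 81.5 CPM in ipsilateral libraries and 81.5, 94.3, 84.5, 93.1 and 79.01 CPM in contralateral libraries. The 10 libraries of day 16 lay between 76.4 and 94.4 CPM, above the 3 lower libraries of each horn on days 5 and 7.

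PARP14 spread most of them. For PARP14 on day 5 the ipsilateral libraries gave 185, 72.3, 81.5, 136 and 44.6 CPM and the contralateral libraries 46.7, 112, 91.8, 53.5 and 56.4 CPM. PARP14 on day 7 stood at 82.9, 65.95, 348, 167 and 76.6 CPM in the ipsilateral horn, against 49.6, 58.5, 57.8, 220.4 and 132 CPM in the contralateral horn. The ipsilateral maximum on day 7 exceeded the contralateral one, but the groups overlapped. On day 13, PARP14 had 144, 78.5, 72.5, 133 and 68.6 CPM in the ipsilateral libraries and 112, 61.9, 106, 56.7 and 55.2 CPM in the contralateral libraries. On day 16, PARP14 had 67.8, 66.8, 57.2, 47.4 and 49.5 CPM in the ipsilateral libraries and 34.04, 55.6, 48.2, 38.6 and 39.3 CPM in the contralateral libraries. On day 16 the ipsilateral libraries lay at 47.4 to 67.8 CPM and the contralateral ones at 34.04 to 55.6 CPM, an overlap. PARP9 ran from 36.4 to 184 CPM and DTX3L from 26.6 to 153 CPM, and in the reference table the spans of PARP9 and DTX3L overlap.

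ZNFX1 is a helicase-like protein that senses viral RNA. Day 5 levels of ZNFX1 were 253, 107, 82.3, 184 and 78.2 CPM in ipsilateral libraries and 105, 236, 212, 102 and 83.8 CPM in contralateral libraries. For ZNFX1 on day 7 the ipsilateral libraries gave 88.8, 86.8, 498, 178 and 82.3 CPM and the contralateral libraries 110.2, 94.98, 99.6, 678 and 185 CPM. It reached its highest level of all libraries in contralateral 5-117, and the 3 lower libraries of each horn were under 115 CPM. ZNFX1 on day 13 stood at 197, 102, 126, 210.2 and 108 CPM in the ipsilateral horn, against 233, 121, 188, 132 and 137 CPM in the contralateral horn. ZNFX1 on day 16 stood at 111, 120, 89.2, 101 and 92.7 CPM in the ipsilateral horn, against 117, 118, 122, 117 and 115 CPM in the contralateral horn. On day 16 the 5 contralateral libraries differed by less than 8 CPM, and their SD of log2(CPM + 1) was the smallest of any member in any group.

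SAMD9 restrains poxviruses and other viruses. On day 5, SAMD9 had 73.9, 32.3, 14.7, 39.05 and 6.72 CPM in the ipsilateral libraries and 12.5, 30.2, 23.6, 8.16 and 7.37 CPM in the contralateral libraries. Day 7 levels of SAMD9 were 13.5, 11.6, 166, 48.6 and 10.2 CPM in ipsilateral libraries and 8.52, 9.06, 5.45, 83.6 and 24.8 CPM in contralateral libraries. In the highest library of day 7 it held 166 CPM in the ipsilateral horn and 83.6 CPM in the contralateral horn. For SAMD9 on day 13 the ipsilateral libraries gave 39.5, 13.9, 22.3, 46.5 and 19.4 CPM and the contralateral libraries 29.5, 11.96, 26.2, 11.96 and 11.7 CPM. For SAMD9 on day 16 the ipsilateral libraries gave 16.8, 13.6, 13.2, 13.9 and 11.7 CPM and the contralateral libraries 8.93, 10.1, 9.29, 5.67 and 6.04 CPM. On day 16 all 5 ipsilateral libraries lay above all 5 contralateral libraries.

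The remaining effectors were XAF1, EPSTI1 and PLAC8, with the members' 2 highest libraries in all 6 groups of days 5, 7 and 13, and TRIM21, with 4 of the 6. XAF1, a promoter of cell death, ran from 13.9 to 129 CPM, EPSTI1 from 11.1 to 151 CPM, and PLAC8, a small cysteine-rich protein, from 4.61 to 91.2 CPM, a name that the reference table gives as a synonym of both PLAC8A and PLAC8B. TRIM21, the cytosolic antibody receptor, spread less, and its lower libraries differed between days. TRIM21 on day 5 stood at 59.5, 44.03, 42.3, 53.9 and 32.4 CPM in the ipsilateral horn, against 46.6, 67.96, 55.8, 43.3 and 44.99 CPM in the contralateral horn. On day 7, TRIM21 had 52.2, 56.95, 138, 62.3 and 66.6 CPM in the ipsilateral libraries and 51.9, 66.8, 71.6, 144 and 67.6 CPM in the contralateral libraries. On day 5 the 10 libraries lay between 32.4 and 68.0 CPM, and on day 7 all but 1 library in each horn lay below 72 CPM. Day 13 levels of TRIM21 were 109, 81.9, 80.3, 102 and 64.2 CPM in ipsilateral libraries and 117, 102, 108, 77.8 and 79.2 CPM in contralateral libraries. Day 16 levels of TRIM21 were 91.6, 95.8, 67.4, 80.01 and 78.2 CPM in ipsilateral libraries and 93.3, 96.6, 95.2, 66.3 and 77.7 CPM in contralateral libraries. All 5 ipsilateral day 16 libraries exceeded all 5 ipsilateral day 5 libraries, and the contralateral ranges overlapped.

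**Figure D2:**
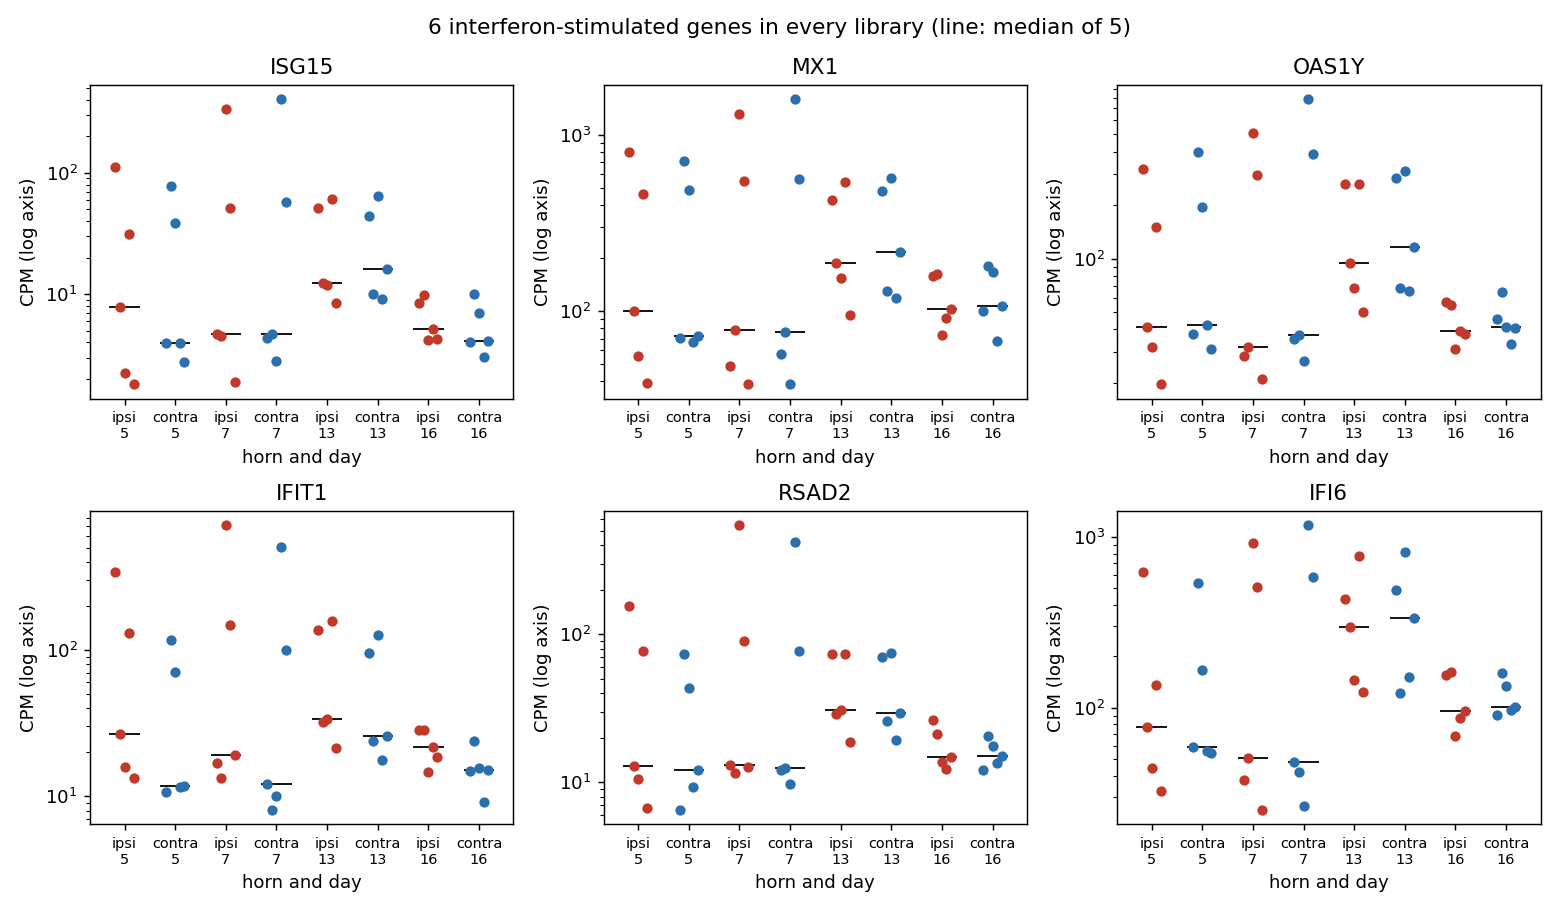
CPM (log axis) of ISG15, MX1, OAS1Y, IFIT1, RSAD2 and IFI6 in each of the 40 libraries, by horn and day, with a line at the median of each 5. In each panel 2 libraries of each horn stand above the other 3 on days 5, 7 and 13, and ISG15 reaches 333 CPM in the ipsilateral and 404 CPM in the contralateral horn on day 7.

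The spread between libraries of 1 group was the common feature of these genes, and since the set was described by it when it was chosen, it is given without a test. The SD of log2(CPM + 1) over the 5 libraries had a median over the 38 genes of 1.04 in the ipsilateral and 0.83 in the contralateral horn on day 5, where the median of all tested genes was 0.22 in the ipsilateral and 0.20 in the contralateral horn. On day 7 the members' median was 1.40 in both horns, beside 0.19 over all genes in the ipsilateral and 0.21 in the contralateral horn, and 38 of 38 members in each horn exceeded the 90th percentile of all genes. That count was 35 in the ipsilateral and 32 in the contralateral horn on day 5, and 29 in the ipsilateral and 28 in the contralateral horn on day 13. On day 13 the medians were 0.63 in the ipsilateral and 0.60 in the contralateral horn. On day 16 they were 0.22 in the ipsilateral and 0.23 in the contralateral horn, near those of all genes (0.20 in the ipsilateral and 0.18 in the contralateral horn). Above the 90th percentile were 7 members in the ipsilateral and 6 in the contralateral horn on that day.

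Pooled over the 8 groups, the SD ran from 0.31 for STAT2 to 1.92 for ISG15 and 1.93 for MX2, with a median of 0.91 beside 0.22 over all tested genes. All 38 members lay above the median of all genes and 35 above the 90th percentile of 0.48, and STAT2, TRIM21 (0.36) and HERC5 (0.45) below it. The tagwise dispersion of edgeR, the squared coefficient of variation between libraries beyond counting noise, had a median of 0.433 over the members and 0.0482 over all tested genes. With any single library left out, the members' median pooled SD stayed between 0.795 and 0.936.

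**Figure D3:**
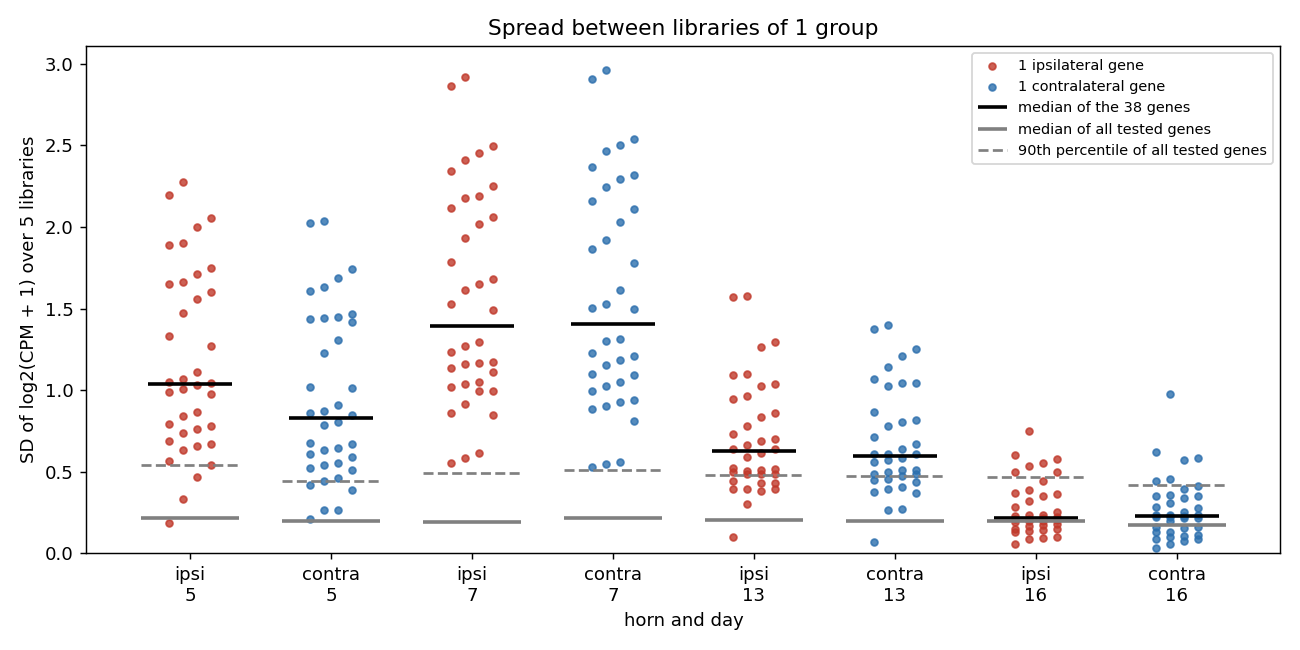
SD of log2(CPM + 1) over the 5 libraries of each group (vertical axis) for each of the 38 genes (points), by horn and day; black lines are medians of the 38 genes, grey lines the median and dashed lines the 90th percentile of all 20356 tested genes. The members' median is 1.40 in both horns on day 7 and is 0.22 in the ipsilateral and 0.23 in the contralateral horn on day 16, close to the median of all genes.

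With this spread, few of the 38 genes passed a test between days. Days were compared within each horn by edgeR's quasi-likelihood test on all 20356 genes, and a change was called where the p adjusted by Benjamini and Hochberg's method was under 0.05. The standard error of a log2 fold change had a median of 0.62 over the 38 genes and 0.20 over all tested genes, and reached 1.23 for a member in the ipsilateral comparison of days 7 and 5. Neighbouring comparisons share the libraries of the day between them.

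HERC5, IRF7 and TRIM21 were higher on day 7 than on day 5 in the ipsilateral horn, and HERC5 and TRIM21 in the contralateral horn. These are 3 of 38 members in the ipsilateral horn, where 30.7% of all tested genes were called (15.9% higher and 14.8% lower). In the contralateral horn they are 2 of 38, where 19.8% were called (10.1% higher and 9.65% lower), and no member was called lower in either horn. HERC5 changed by 1.09 ± 0.28 on the log2 scale in the ipsilateral horn (SE, 2.13-fold, edgeR adjusted p = 0.00378) and by 1.12 ± 0.29 in the contralateral horn (2.17-fold, adjusted p = 0.00469), where the ranges of the 2 days did not overlap, as for 11.9% of all tested genes. It passed with each library of the compared groups left out in turn, but in the ipsilateral horn not with the libraries of those groups alone (adjusted p = 0.0568). IRF7 changed by 1.34 ± 0.46 in the ipsilateral horn (2.53-fold, edgeR adjusted p = 0.0264). TRIM21 changed by 0.70 ± 0.23 in the ipsilateral (1.62-fold, edgeR adjusted p = 0.0209) and by 0.64 ± 0.23 in the contralateral horn (1.56-fold, adjusted p = 0.0476).

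The calls of IRF7 and TRIM21 rested on single libraries. Without 4-064, the ipsilateral day 7 library highest in all 38 members, IRF7 had an edgeR adjusted p of 0.447 and TRIM21 of 0.209, and without contralateral 5-117 TRIM21 had 0.328. IRF7 also missed the threshold without ipsilateral day 5 library 3-175, 4-184, 7-300 or 8-1350, and TRIM21 without 8-1350 (edgeR adjusted p = 0.0669). In the contralateral horn TRIM21 missed it also without day 5 library 1-315, 4-184, 7-300 or 8-1350 or day 7 library 4-064, where the edgeR adjusted p was at least 0.0611. Without ipsilateral day 5 library 1-315, the highest of its group, 7 members passed in place of 3. Of the 38 estimates, 37 were positive in the ipsilateral horn (median 0.74) and 38 in the contralateral horn (median 0.83), beside a median of -0.01 over all tested genes in the ipsilateral horn. These genes vary together, so the signs are not 38 separate results. By the members' mean log2(CPM + 1), the middle library went from 4.80 to 4.55 in the ipsilateral and from 4.37 to 4.48 in the contralateral horn. The highest library went from 6.71 to 7.81 in the ipsilateral and from 6.24 to 7.72 in the contralateral horn.

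IRF7 was lower on day 13 than on day 7 in the ipsilateral horn, by -1.25 ± 0.46 on the log2 scale (SE, 0.420-fold, edgeR adjusted p = 0.0385). It was the 1 member of 38 called there, where 29.8% of all tested genes were called (14.5% higher and 15.3% lower). Without ipsilateral 4-064 its adjusted p was 0.563, and without ipsilateral day 13 library 5-140, 5-167 or 8-275 it lay between 0.0774 and 0.0957. No member passed in the contralateral horn, where 32.9% of all tested genes did (15.8% higher and 17.1% lower). There 4 members had an unadjusted p below 0.05, DESeq2 called 1, and edgeR called 2 without contralateral day 7 library 2-1337 and 1 without 4-064, 5-117 or 6-338. The medians of the log2 fold changes over the 38 genes were -0.58 in the ipsilateral and -0.61 in the contralateral horn. The middle library by the members' mean log2(CPM + 1) did not fall with them. It stood at 4.55 on day 7 and 5.22 on day 13 in the ipsilateral horn, and at 4.48 and 5.24 in the contralateral horn. The highest library stood at 7.81 and 6.28 in the ipsilateral and at 7.72 and 6.18 in the contralateral horn.

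On day 16 relative to day 13 all 38 estimates were negative in both horns, with a median of -0.90 in the ipsilateral and -0.96 in the contralateral horn, yet no member passed. In these comparisons 1.02% of all genes passed in the ipsilateral horn (0.452% higher and 0.57% lower) and 1.33% in the contralateral horn (0.432% higher and 0.899% lower). An unadjusted p below 0.05 was found for 3 members in the ipsilateral and 4 in the contralateral horn, and DESeq2 called 1 member, HERC5, in the ipsilateral horn and 0 in the contralateral horn. MX2 had the lowest estimate in both horns, -2.35 ± 1.28 in the ipsilateral (SE, edgeR adjusted p = 0.487) and -2.56 ± 1.30 in the contralateral horn (adjusted p = 0.419). The 5 day 16 levels lay below all 5 day 13 levels for 6 members in the ipsilateral horn, HERC5, IFIT5, STAT2, PARP14, XAF1 and EPSTI1. In the contralateral horn this was so for 9 members, USP18, HERC5, OAS1Y, DDX58, STAT2, IRF9, IFI44, XAF1 and SAMD9. Ranges that do not overlap were found in 2.88% of all tested genes in the ipsilateral and 3.99% in the contralateral horn, in either direction. These members were named after their values were seen.

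Between day 16 and day 5, TRIM21 was higher in both horns and IFIT5 lower in the ipsilateral horn. TRIM21 changed by 0.83 ± 0.23 in the ipsilateral horn (SE, 1.78-fold, edgeR adjusted p = 0.0043) and by 0.73 ± 0.23 in the contralateral horn (1.66-fold, adjusted p = 0.0103), and passed with each library of these groups left out in turn. In a fit with each library's share of reads in tRNA and microRNA genes (log2) added as a term it did not pass (edgeR adjusted p = 0.121 in the ipsilateral and 0.323 in the contralateral horn), nor did IFIT5 (0.135). That share was 0.00989% to 0.0122% on day 5 and 0.0139% to 0.0175% on day 16 in the ipsilateral horn. In the contralateral horn it was 0.00820% to 0.00941% on day 5 and 0.0113% to 0.0147% on day 16. The days did not overlap in it, so that fit could hardly separate the share from the day. With the libraries of the compared groups alone, 8 members were called in the contralateral horn in place of 1, 7 of them lower. IFIT5 changed by -0.93 ± 0.33 in the ipsilateral horn (0.526-fold, edgeR adjusted p = 0.0242), with ranges that did not overlap, as for 23.4% of all tested genes. Without ipsilateral day 5 library 1-315 its adjusted p was 0.0930, which left 1 member called, and without 8-1350 4 members were called. Of all tested genes, 40.4% were called in the ipsilateral horn (19.9% higher and 20.5% lower) and 42.9% in the contralateral horn (20.6% higher and 22.4% lower). The medians over the 38 genes were -0.86 in the ipsilateral and -0.69 in the contralateral horn. EIF2AK2 and IFIT5 in the contralateral horn had day 16 ranges below those of day 5, without passing the test, and 30.3% of all genes had ranges that do not overlap there.

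The change between days was also compared between the horns. No member and no other gene passed for the difference between horns in the change of day 7 against day 5, day 13 against day 7 or day 16 against day 13 (0% of all tested genes by edgeR; unadjusted p below 0.05 in 0 members and in 3.2%, 0.604% and 0.516% of all genes; DESeq2 called 0 members). Median differences over the 38 genes were -0.21, -0.01 and 0.07.

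**Figure D4:**
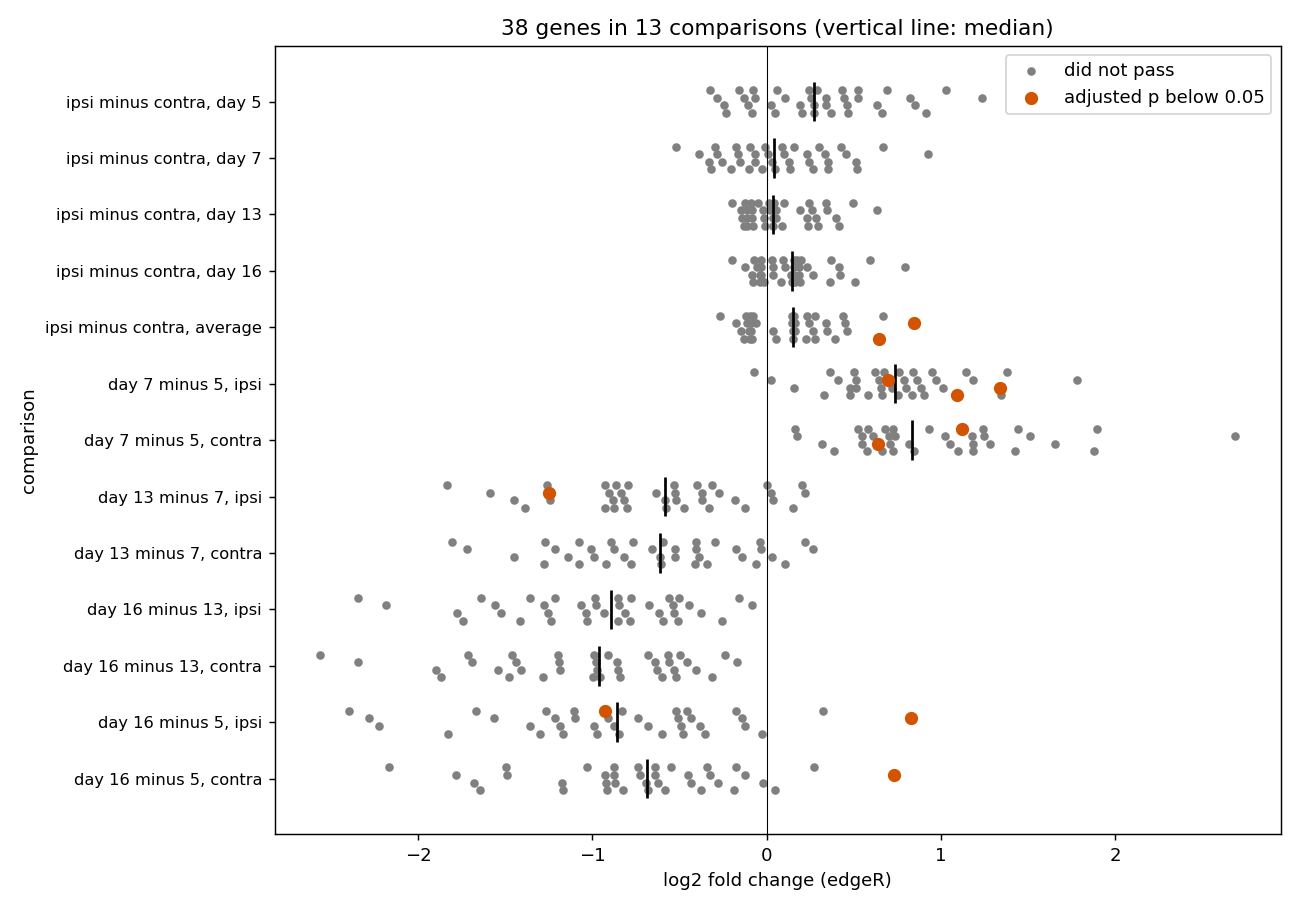
Log2 fold change (edgeR, horizontal axis) of each of the 38 genes (points) in the 5 comparisons of the horns and the 8 comparisons of days within a horn (rows); orange points have an adjusted p below 0.05 and vertical lines are medians of the 38 genes. Medians of day 16 minus day 13 lie at -0.90 in the ipsilateral and -0.96 in the contralateral horn with no orange point, and the 11 orange points are of HERC5, IRF7, TRIM21, IFIT5, EIF2AK2 and SAMD9.

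Between the horns, EIF2AK2 and SAMD9 were higher in the ipsilateral horn on average over the 4 days, and no member was lower. EIF2AK2 differed by 0.65 ± 0.23 on the log2 scale (SE, 1.56-fold, edgeR adjusted p = 0.0228) and SAMD9 by 0.85 ± 0.33 (1.80-fold, adjusted p = 0.0430). Of all tested genes, 38.2% were called in that comparison (19.6% higher and 18.6% lower). The estimate of EIF2AK2 was 0.82 ± 0.46 on day 5, 0.67 ± 0.45 on day 7, 0.50 ± 0.45 on day 13 and 0.59 ± 0.46 on day 16, and that of SAMD9 was 1.03 ± 0.67, 0.93 ± 0.66, 0.63 ± 0.66 and 0.79 ± 0.68, with none of the 8 past the threshold. The sign was the same on each day, and the means of both genes over the 5 libraries were higher in the ipsilateral horn on each day.

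Both calls depended on the libraries and the setting. EIF2AK2 missed the threshold without ipsilateral day 7 library 4-064 (edgeR adjusted p = 0.0573) and passed without any other single library. Without 4-064 the 1 member called was STAT2, lower in the ipsilateral horn. SAMD9 missed it without 22 of the 40 libraries in turn, with adjusted p between 0.0501 and 0.165, and the highest of these without 4-064. These were, in the ipsilateral horn, 1-315 and 7-300 on day 5, 4-064 and 5-117 on day 7, 4-1314 and 6-203 on day 13 and 2-068, 3-155, 5-137 and 7-107 on day 16. In the contralateral horn they were 1-315, 7-300 and 8-1350 on day 5, 2-1337, 2-371, 4-064 and 6-338 on day 7, 5-140, 6-203 and 8-275 on day 13, and 7-107 and 8-245 on day 16. Without contralateral day 7 library 5-117, 6 members passed. With the log2 share of reads in microRNA and tRNA genes as a covariate, a measure that was 0.00989% to 0.0175% in ipsilateral and 0.00820% to 0.0147% in contralateral libraries, neither gene passed (edgeR adjusted p = 0.592 for EIF2AK2 and 0.8003 for SAMD9). On day 5 the share was 0.00989% to 0.0122% in ipsilateral and 0.00820% to 0.00941% in contralateral libraries. The horns did not overlap in it on days 7 and 13 either, and overlapped on day 16. The fit could therefore hardly separate the share from the horn, and no conclusion is drawn from it. The part of this share in the difference was not tested further.

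No member passed between the horns on any single day. On day 5, 22.7% of all tested genes passed (12.3% higher and 10.4% lower), and on day 7, 11.7% did (7.52% higher and 4.2% lower). On day 13, 5.72% passed (4.52% higher and 1.2% lower), and on day 16, 4.53% (3.87% higher and 0.663% lower). No member had an unadjusted p below 0.05 on any of the 4 days, and DESeq2 called 0. The medians over the 38 genes were 0.27, 0.04, 0.04 and 0.14 on days 5, 7, 13 and 16. The day 16 ipsilateral levels of IFIH1 and SAMD9 lay above all contralateral levels, where 6.31% of all tested genes had ranges that do not overlap. On days 5, 7 and 13 no member did, beside 13.3%, 9.89% and 6.73% of all tested genes. ISG15 differed by 0.29 ± 1.20 on day 5, -0.26 ± 1.19 on day 7, 0.01 ± 1.20 on day 13 and 0.17 ± 1.25 on day 16, estimates whose errors allow differences of more than 2-fold in either direction. Without ipsilateral day 7 library 4-064, 1 member, STAT2, was called on day 7, again lower in the ipsilateral horn. Each heifer gave both horns, and because the tags were not used to pair them, the errors hold the differences between animals as well.

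The interferons themselves were close to the limit of detection. IFNB3 had no read in any of the 40 libraries, IFNG had 0 to 12 reads and IFNB1 0 to 62. IFNT2, annotated as an interferon tau gene, had 4 to 85 reads and was above 0 in all 40 libraries, and the row IFN-TAU had 0 to 2 reads and was at 0 in 29. IFNT2 rose on day 16 relative to day 5, by 2.00 ± 0.41 on the log2 scale in the ipsilateral horn (SE, edgeR adjusted p = 0.000199) and by 1.57 ± 0.41 in the contralateral horn (adjusted p = 0.00239). IFNE, an interferon made by epithelium of the reproductive tract in mice and people, had 0 to 41 reads. It rose on day 13 relative to day 7 by 2.31 ± 0.57 in the ipsilateral (edgeR adjusted p = 0.00196) and 2.83 ± 0.66 in the contralateral horn (adjusted p = 0.000991), and on day 16 relative to day 5 by 3.02 ± 0.60 in the ipsilateral and 4.14 ± 0.69 in the contralateral horn. With so few reads, nothing is read from the order of the libraries in these genes.

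Of the 10 receptors, kinases and STATs described, IFNAR1, IFNAR2, JAK1 and TYK2 had the same 2 highest libraries as the members in 0 of 6 groups. IFNAR1 was lower on day 7 than on day 5 in the ipsilateral horn (-0.69 ± 0.14 on the log2 scale, SE, edgeR adjusted p = 0.000365), as was IFNAR2 (-0.44 ± 0.12, adjusted p = 0.00506). IFNGR2 was lower there too (-0.66 ± 0.13, edgeR adjusted p = 0.000279), beside 14.8% of all tested genes. In ipsilateral day 5 library 8-1350 IFNAR1 stood at 169 CPM, beside 87.8 to 110 CPM in the rest of that group. IFNAR2 was also highest in that library, and whether the calls hold without it was not tested. Between the horns, 1 of the 10 was higher on average, the kinase JAK2 (0.55 ± 0.05, edgeR adjusted p = 6.03e-11), and 4 were lower, IFNGR2, JAK1, TYK2 and STAT3, beside 19.6% higher and 18.6% lower over all tested genes. JAK2 was also higher on each of the 4 days. Among the 7 negative regulators, SOCS1 was lower on day 16 than on day 5 in the ipsilateral horn (-0.75 ± 0.23, edgeR adjusted p = 0.00922). PTPN11 was also lower there (-0.79 ± 0.15, edgeR adjusted p = 9.06e-05) and PTPN6 higher (0.61 ± 0.12, adjusted p = 0.000145). Of all tested genes, 20.5% were lower and 19.9% higher in that comparison. None of the 7 followed the members in more than 2 of 6 groups.

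Antigen presentation, which interferons raise through the MHC class I genes, shared the libraries of the members in part. Of 14 listed genes, 6 had the same 2 highest libraries in at least 4 of 6 groups, among them BOLA-NC1 (6), B2M, PSMB9, PSME1 and PSME2 (5 each). Another 3, the class I genes BOLA and JSP.1 and the transporter gene TAP2, had them in none of the 6 groups. On day 7, 5 of the 14 were higher than on day 5 in the ipsilateral horn and none lower, and 3 were higher in the contralateral horn, where 15.9% of all tested genes were higher in the ipsilateral and 10.1% in the contralateral horn. TAP1, a peptide transporter, was higher by 1.22 ± 0.27 in the ipsilateral horn (SE, edgeR adjusted p = 0.000754) and by 0.96 ± 0.27 in the contralateral horn (adjusted p = 0.00877). B2M, the light chain of class I molecules, was higher by 0.87 ± 0.26 in the ipsilateral (adjusted p = 0.00959) and 0.80 ± 0.26 in the contralateral horn (edgeR adjusted p = 0.0242). On day 7 B2M stood at 1217 CPM in ipsilateral 4-064, beside 429 to 711 CPM in the rest of that group. In contralateral 5-117 it stood at 1324 CPM, beside 452 to 784 CPM in the rest. Whether these calls hold without those libraries was not tested. On day 13 relative to day 7 TAP1 was lower by -1.35 ± 0.27 in the ipsilateral and -1.36 ± 0.27 in the contralateral horn (edgeR adjusted p = 0.000166 and 0.000139). Of the 14, 4 were lower in the ipsilateral horn in that comparison, and 3 lower and 1 higher in the contralateral horn. Of all tested genes, 15.3% were lower in the ipsilateral horn, and 17.1% were lower and 15.8% higher in the contralateral horn.

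Of 11 tested genes listed as responsive to interferon gamma, CCL8 alone had the same 2 highest libraries in at least 4 of 6 groups. The list does not set interferon gamma apart from other interferons. CXCL10, a chemokine for T cells, ran from 5.17 to 116 CPM in the ipsilateral horn on day 7, with 4-064 highest, and from 3.19 to 69.9 CPM in the contralateral horn, with 5-117 highest. IDO1, which breaks down tryptophan, was higher on day 7 than on day 5 by 2.99 ± 1.05 in the ipsilateral (SE, edgeR adjusted p = 0.0276) and by 3.06 ± 1.05 in the contralateral horn (adjusted p = 0.0361). On day 13 relative to day 7, 4 of the 11 were lower in the ipsilateral horn, CXCL9, CXCL11, IDO1 and GBP4, and 1 in the contralateral horn, IDO1, beside the same shares of all genes (15.3% lower in the ipsilateral and 17.1% in the contralateral horn). GBP4 and GBP6 were lower on day 16 than on day 5 in both horns, 2 of the 11, where 20.5% of all genes were lower in the ipsilateral and 22.4% in the contralateral horn.

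Among the 7 interferon regulatory factors described beside the members, IRF1 and IRF3 had the same 2 highest libraries in 4 of 6 groups. Of the 13 sensors and adaptors upstream of interferon, ZBP1, a sensor of Z-form nucleic acid that interferon itself raises, followed in 6 of 6 groups and ran from 1.62 to 103 CPM. TBK1, the kinase that activates IRF3, was higher in the ipsilateral horn on each of the 4 days (0.42 ± 0.05 on average on the log2 scale, SE, edgeR adjusted p = 1.49e-08). On average over the days TLR3 and MAVS were higher too, and TLR4, MYD88 and TICAM1 were lower. Of all tested genes, 19.6% were higher and 18.6% lower in that comparison.

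**Figure D5:**
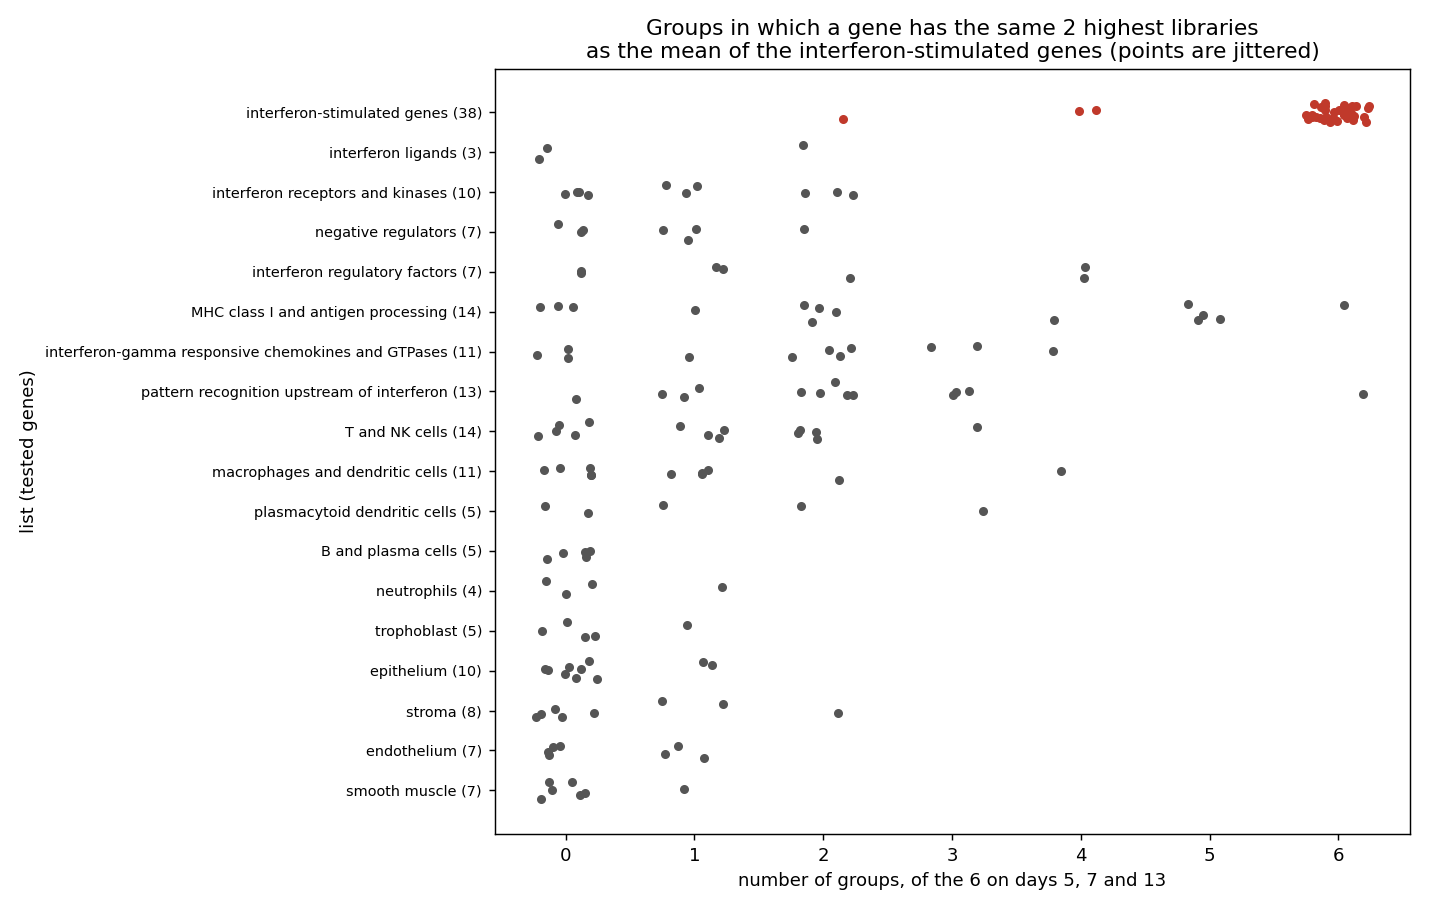
For each gene of a list (points, jittered), the number of the 6 groups of days 5, 7 and 13 (horizontal axis) in which its 2 highest libraries are those of the mean of the interferon-stimulated genes; numbers after the list names are tested genes. Of the 38 members 35 lie at 6, and of the other lists BOLA-NC1 and ZBP1 reach 6.

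Outside the 38, the genes most like them were found by the correlation of group-centred log2(CPM + 1) with the members' mean over the 40 libraries, which all genes share along with their depth and scaling. Among the highest were LOC618737 (r = 0.984), RTP4 (0.978), LOC100298356 (0.977), UBA7 (0.973), SP140 (0.972), LOC509283 (0.972), IFITM3 (0.967), ZBP1 (0.966) and ADAR (0.966). UBA7 is the enzyme that activates ISG15, IFITM3 blocks viral entry, and ADAR edits double-stranded RNA. UBA7 ran from 9.66 to 384 CPM and IFITM3 from 25.1 to 293 CPM. All 9 had the same 2 highest libraries as the members in 6 of 6 groups. Genes picked for a high correlation with the members' mean tend to share its highest libraries, so this is not a separate result.

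Markers of other cells were set beside the libraries. On day 7 the 12 listed macrophage and dendritic cell genes summed to 112 to 439 CPM in the ipsilateral horn and 142 to 501 CPM in the contralateral horn, and the highest sum was in the library highest for the members in each (4-064 and 5-117). Of these markers 8 in the ipsilateral and 7 in the contralateral horn had their highest level there. So had 10 of the 14 T and NK cell genes in the ipsilateral and 9 in the contralateral horn, whose sums ran from 37.6 to 77.1 CPM in the ipsilateral and 38.5 to 77.9 CPM in the contralateral horn. On the other days at most 1 of the 14 T and NK cell genes was highest in the top member library, and on day 16 their sum was lowest there in both horns. On day 13 the macrophage sum was also highest in the top member library, with 114 to 220.0 CPM in the ipsilateral and 175 to 242 CPM in the contralateral horn. On day 5 it was the middle value of 5 there, with sums of 125 to 437 CPM in the ipsilateral and 231 to 373 CPM in the contralateral horn, and the top member library was the highest for 1 of the 12 markers in the ipsilateral and 0 in the contralateral horn. On day 16 it ran from 165 to 191 CPM in the ipsilateral and 159 to 227 CPM in the contralateral horn. MARCO was at 0 in all 5 libraries of 4 of the 8 groups, and the other 11 macrophage markers were above 0 in all 40 libraries. The part of these cells in the levels of the 38 genes was not tested.

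Smooth muscle genes, a sign of how much muscle wall came with the lining, summed to 714 to 5640 CPM in the ipsilateral horn on day 5, the highest in 8-1350, which had the lowest mean of the members in that group. On day 5 in the contralateral horn they summed to 662 to 1360 CPM, and there 8-1350, again lowest for the members, had the lowest sum. The top member library of day 5 ranked 3 of 5 by this sum in the ipsilateral and 4 of 5 in the contralateral horn, counted from the highest. On days 7, 13 and 16 their sum was lowest in the top member library of every group, with 242 to 582 CPM on day 7 and 282 to 856 CPM on day 13 in the ipsilateral horn. In the contralateral horn it ran from 331 to 694 CPM on day 7 and from 387 to 724 CPM on day 13. Their part in the levels was not tested. Of genes listed as trophoblast markers, PAG11, CSH2 and PRP1 had no read in any library, TKDP1, TKDP4 and PAG12 had reads in 1 library each (at most 4), and CDX2 had 0 to 9 reads. PAG2 had reads in 14 libraries and PAG8 in 26, at most 6 in each gene. Other genes of that list were detected widely, PAG1 with 17 to 314 reads, SSLP1 with 16 to 1489 and PTGS2 with 110 to 7921 in all 40 libraries, and ELF5 with up to 868 in 39 libraries. PAG1 and ELF5 had their most reads in an ipsilateral day 5 library. Reads of these widely detected genes are not taken here as a sign of trophoblast. A group of 5 plasmacytoid dendritic cell genes tested held none with the members' libraries in more than 3 of 6 groups.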

How the data were processed

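Total RNA of homogenised endometrium was treated with DNase and made into stranded mRNA libraries, per the labels' protocols. The deposited values are whole-number read counts per gene, which the authors made with FastQC, HISAT2 and featureCounts on the bovine build UMD3.1, per the submitters' processing notes. How reads that match several genes were counted is not stated there. A row of mitochondrial DNA, which names no single gene and held 0.0812% to 0.578% of reads, was left out. Of the 32671 genes, those kept by edgeR's filterByExpr over the 8 groups (20356) were scaled by TMM and tested with edgeR 4.0.16 (quasi-likelihood, 1 mean per group, R 4.3.3). The spread was the SD of log2(CPM + 1). Alternatives were DESeq2 1.42.0, limma-voom (limma 3.58.1), RLE factors, no filter, the compared groups only, tag blocks, leaving out each library, and, added after the data were seen, a microRNA and tRNA share as covariate. The fits were checked on simulated counts. The members and lists were chosen with earlier results of these data known, and the measure of shared highest libraries was chosen after values were seen. A few genes of the pathway lists are not reported here. Named with every library's value were ISG15, MX1, in each role the members with the highest mean CPM and the highest spread, and members called between horns. HERC5, IRF7 and TRIM21 were added for their calls. Gene spans came from RefSeq's ARS-UCD2.0 and served only to find overlapping genes, since the files use another build. Of the 39 names, 35 were symbols there, 1 was a synonym and 3 were neither.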

Additional observations from a re-analysis of the deposited data

Results flagged for a closer look

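Of 168 sets of 5 libraries checked, 4 had a library that stood far from the other 4 by Dixon's ratio of the gap to the range. The ratio was taken on log2(CPM + 1), not on the CPM printed below. Chance alone marks about 1 in 20 such sets, a larger share than the 4 of 168 found. The ratio uses only the gap to the next library, so it can miss sets in which more than a single library is high. The sets are also not independent, since these genes vary together. STAT2, which joins IRF9 in the factor that switches on interferon-stimulated genes, stood at 265.8 CPM in ipsilateral day 7 library 4-064 and at 286.7 CPM in contralateral day 7 library 5-117. These are the libraries in which all 38 members were highest on that day. HERC6 stood at 55 CPM in contralateral day 16 library 3-155, the highest of its group by the members' mean. OAS1X stood at 7.454 CPM in ipsilateral day 13 library 5-167, below the other 4 libraries of that group.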

How the results depend on the processing

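Of 339 recounts of the members called under other settings, 274 stayed within 1.5 times the count reported and 65 did not. Of 247 recomputed fold changes, over 11 gene and comparison pairs, 0 changed sign and 66 no longer passed. Between the horns on average, 1 member passed with no filter, with limma-voom and in both fits with a tag as replicate block (limma-voom with a random block, edgeR with fixed terms), and 0 with the microRNA and tRNA covariate. In day 13 against day 7 in the ipsilateral horn, 0 passed with no filter, with limma-voom, with the random replicate block and with the compared groups only. In day 7 against day 5 in the contralateral horn, 1 passed in each of those 4 fits and with the covariate. In the ipsilateral horn of the same days, 1 passed with the covariate and 0 with the compared groups only. The covariate itself differed between days 5 and 16 in both horns, and between the horns on days 5, 7 and 13, as given above. For day 16 against day 5, 0 passed with the covariate in either horn, and 8 passed in the contralateral horn with the compared groups only. That last setting also gave 3 members between the horns on day 16 (EIF2AK2, IFI16 and SAMD9) and 2 in contralateral day 16 against day 13 (HERC5 and STAT2). DESeq2 called 1 in ipsilateral day 16 against day 13 and 1 in contralateral day 13 against day 7. Leaving out 1 library gave 1 to 6 members between the horns on average and 0 to 1 on day 7. For days 7 and 5 it gave 1 to 7 in the ipsilateral and 1 to 3 in the contralateral horn, for days 13 and 7 it gave 0 to 1 in the ipsilateral and 0 to 2 in the contralateral horn, and for days 16 and 5 in the ipsilateral horn 1 to 4. The cause of these changes was not tested. Deviations from the group means showed a correlation above 0.1 within the tag for 5 of 20 tags (-0.26 to 0.67, median -0.05), and 5 of 20 libraries correlated best with their own tag, so the block results do not rest on a shown pairing. With a replicate block the calls of SAMD9, IRF7 (both comparisons) and TRIM21 (contralateral day 7 against day 5) were lost, and no other call was. The random block, with a tag correlation of 0.024, was fitted in limma-voom. Without the block, limma-voom gave the same counts between horns on average, in ipsilateral day 13 against 7 and in contralateral day 7 against 5. In these comparisons the counts were thus lower in limma-voom with or without the block, and the part of the block was not tested. SAMD9 was also lost in the edgeR fit with tags as fixed terms, which this comparison does not cover. Limits: each group holds 5 libraries, and the spread between them sets what can pass; reads of interferon genes are too few to order the libraries; the horns of a heifer could not be matched; and whole tissue gives no cell of origin.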

Other observations

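Summed over the 38 genes, the levels reached 11330 CPM in the highest ipsilateral and 11710 CPM in the highest contralateral library of day 7, against lowest values of 1181 CPM in the ipsilateral and 1109 CPM in the contralateral horn on that day. On day 16 the sums ran from 1267 to 1699 CPM in the ipsilateral and from 1242 to 1650 CPM in the contralateral horn, so that no day 16 library was below the lowest day 7 library of its horn.

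Further genes outside the list had levels like the members' mean across the 40 libraries. PML, which forms nuclear bodies, had r = 0.955 and ran from 25.1 to 163 CPM. PARP10 had r = 0.955, SP110 0.954, IFI35 0.946, PNPT1 0.942 and SLFN11 0.937, and CASP4, an inflammatory caspase, had 0.915. LGALS3BP, a secreted galectin ligand, had r = 0.91 and ran from 45.6 to 280.4 CPM. These are descriptions over libraries that all genes share, and each of these genes had the 2 highest libraries of the members in 6 of 6 groups of days 5, 7 and 13, except PNPT1 with 5. As they were picked by the correlation, these shared libraries are not a separate result. IFNE was higher in the ipsilateral horn on average over the 4 days by 1.11 ± 0.32 on the log2 scale (SE, edgeR adjusted p = 0.00517), and its highest library held 41 reads.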
